A study of Mus musculus with 4 samples.

Results

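The clustered protocadherins are cell surface adhesion proteins encoded side by side on mouse chromosome 18 in an alpha, a beta and a gamma cluster. Protein-coding genes whose symbols start with Pcdha, Pcdhb or Pcdhg were taken from the GENCODE vM21 basic annotation of mm10, which gave 57 of 21938 protein-coding genes on the autosomes and sex chromosomes. They comprised 14 alpha, 22 beta and 21 gamma genes. The 57 entries carry 56 symbols, because 2 neighbouring alpha entries are both called Pcdha11. All regions from 100 kb before the first to 100 kb after the last of their transcription start sites (TSSs) were examined, 36830184 to 37919566 on chromosome 18, a window of 1089 kb.

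The assay was ATAC-seq, whose transposase inserts adapters into open chromatin, and it was run on cells of wild-type C57BL/6 mice aged 4 weeks. The cells came from the dental mesenchyme of the incisor, and no treatment or genetic change was given for them. The 4 samples were sequencing lanes under 1 shared name, so the values are those of 1 library, without replicates and without a second condition. The sources used here do not say whether animals were pooled. The library held 2297894 reads in 121574 listed regions, with a median of 7 reads per region. Intervals on reads are exact 95% Poisson intervals and cover counting error alone. Reads that fell outside listed regions are not in the table, so a promoter without a region has no value, which is not a measured absence.

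Each gene of the alpha and gamma clusters starts from its own promoter and a long variable exon, which is spliced to constant exons shared by the whole cluster. The beta genes have variable exons alone. In neurons, CTCF and cohesin bring enhancers to a few variable promoters, most other variable promoters stay silent and methylated, and each cell so displays its own combination of isoforms at its surface. The last members of the alpha and gamma arrays, called C-type, differ in sequence from the rest and are expressed more evenly among neurons. Enhancers known from brain lie near the alpha constant exons and beyond the gamma cluster.

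Markers of the labelled tissue were checked at promoters first, a promoter being open when a region with at least 1 read overlapped 1 kb either side of a TSS. Over all protein-coding genes, 64.3% of promoters were open. Of 10 dental mesenchyme factors 9 had an open promoter (90%), led by Msx1 with 164 reads, Twist1 with 157 and Dlx5 with 154, and Barx1 had none. No promoter was open among 6 leukocyte genes. Of 8 neuronal genes 5 were open (62.5%), with 291 reads in all, led by Map2 with 145, Elavl4 with 50 and Syt1 with 40. The neuronal genes Elavl3, Rbfox3 and Stmn2 had no region. Of 6 Schwann cell and glial genes 4 were open (66.7%), with 51 reads in all, led by Mbp with 22, Ngfr with 21 and Cdh19 with 5. The defining glial genes Sox10 and S100b had none. Of 5 epithelial genes 4 were open (80%), with 84 reads in all, led by Krt14 with 28, Epcam with 25 and Krt5 with 21, and Amelx had none. The neuronal and the glial share thus lay near that over all genes. The part of these other cell types in the values below was not tested.

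Nearly all promoters of the clustered protocadherins lacked a listed region. Of the 57 genes, 6 had an open promoter (10.5%, exact 95% binomial interval 3.96% to 21.5%), against 64.3% of all protein-coding genes. The interval takes the members as independent, although they are neighbours. Among the 52 variable members 2 were open (3.85%, 0.469% to 13.2%), and among the 5 C-type members 4 were. The members had 197 promoter reads in all, of which the C-type members held 185 (93.9%). With regions of at least 10 reads counted, 3 members were open, all C-type, against 58.3% of all protein-coding genes.

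**Figure D1:**
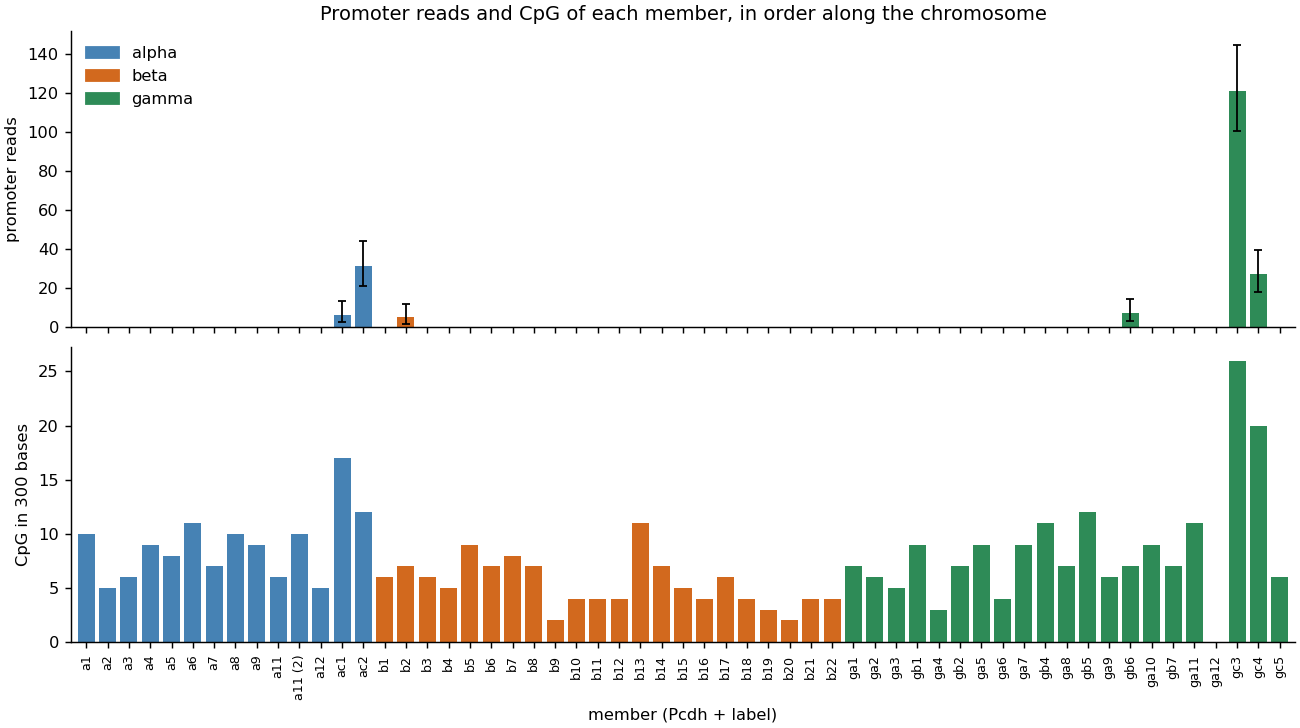
Reads in regions overlapping 1 kb either side of a TSS (top, with exact 95% Poisson intervals where a region is listed) and CpG dinucleotides from 250 bases before to 50 after the TSS (bottom) for each of the 57 members, in order along the chromosome and coloured by cluster. For a member with several TSSs the highest CpG count is shown. Pcdhgc3 stands highest at 121 reads, 5 other members have 5 to 31, and the other 51 have no listed region.

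In the alpha cluster, the 12 variable members from Pcdha1 to Pcdha12 had no region at their promoters or on their variable exons. No region was listed anywhere in the 159.8 kb that hold them, nor in the 99 kb before the cluster. Together with sequence outside the window this made a gap of 287.8 kb between neighbouring regions. Both C-type members were open. Pcdhac1 had a single region of 6 reads (2.20 to 13.1), from 37089768 to 37090101, which contains its TSS at 37090013. Pcdhac2 had 31 reads (21.1 to 44.0) over 3 abutting regions from 37143406 to 37144847. Its TSS lies at 37143503, and 23 of the reads fell in the middle region, from 37143647 to 37144423, within the variable exon. The intervals of these C-type promoters did not overlap, and Pcdhac2 stood above 51.9% of protein-coding genes, against 38.4% for Pcdhac1.

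The alpha variable array had no region, but among whole clusters beta was the emptiest. The beta cluster has no C-type members or constant exons. Its 22 genes had 5 reads in all (1.62 to 11.7), in 1 region from 37294815 to 37295059, just inside the start of Pcdhb2, whose TSS is at 37294812. Pcdhb1, at the start of the cluster and upstream of that region, had none, and neither did any gene from Pcdhb3 to Pcdhb22. Between the Pcdhb2 region and the next one, at 37655564, no region was listed over 360.5 kb that contain the TSSs of 20 beta genes. Of 121553 pairs of neighbouring regions in the genome, abutting pairs included, 623 were as far apart (0.513%), and 16 of these were on chromosome 18. Gaps with at least 22 protein-coding genes, the number in this one, came to 37. Of these, 21 held mainly olfactory receptor genes and 4 mainly vomeronasal receptor genes, and the beta gap was the 1 on chromosome 18.

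The beta gap also contains 2 genes that are no protocadherins. Taf7 encodes a subunit of the general transcription factor TFIID, and Slc25a2 encodes a mitochondrial ornithine carrier. Neither had a region at its promoter. Whether rows are missing here from the table as analysed is not known, so this gap and the others are gaps between listed rows. The Taf7 window from 250 bases before to 50 after the TSS at 37644204 holds 28 CpG dinucleotides. Of 8941 genes outside the clusters with 20 or more, 451 (5.04%) lacked an open promoter, and Taf7 was among them. Every 75-base word within 1 kb of the Taf7 and Slc25a2 starts occurs once in the genome.

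The gamma cluster divided sharply along its length. Of its 18 variable members, from Pcdhga1 to Pcdhga12, Pcdhgb6 alone had an open promoter, with 7 reads (2.81 to 14.4) from 37741994 to 37742320, around its TSS at 37742094. The 17 others had none, among them Pcdhga1, the first of the array. No region was listed over 86.1 kb with 13 gamma starts before the Pcdhgb6 region, nor over 63.7 kb with 4 starts after it. Of the C-type members, Pcdhgc3 was the most accessible of all 57 genes, with 121 reads (100.4 to 144.6), more than 82.8% of protein-coding genes. Its 2 regions ran from 37806021 to 37807321, with the TSS at 37806410, and the antisense gene BC037039 overlaps them. Pcdhgc4 had 27 reads (17.8 to 39.3) from 37814936 to 37815746, over both of its TSSs. Pcdhgc5, the last member, had no region at its promoter; the nearest lay 3.92 kb upstream, at Pcdhgc4. The Pcdhgc3 interval lay above those of all other open members. Those of Pcdhgc4 and Pcdhac2 overlapped, as did those of Pcdhac1, Pcdhb2 and Pcdhgb6.

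**Figure D2:**
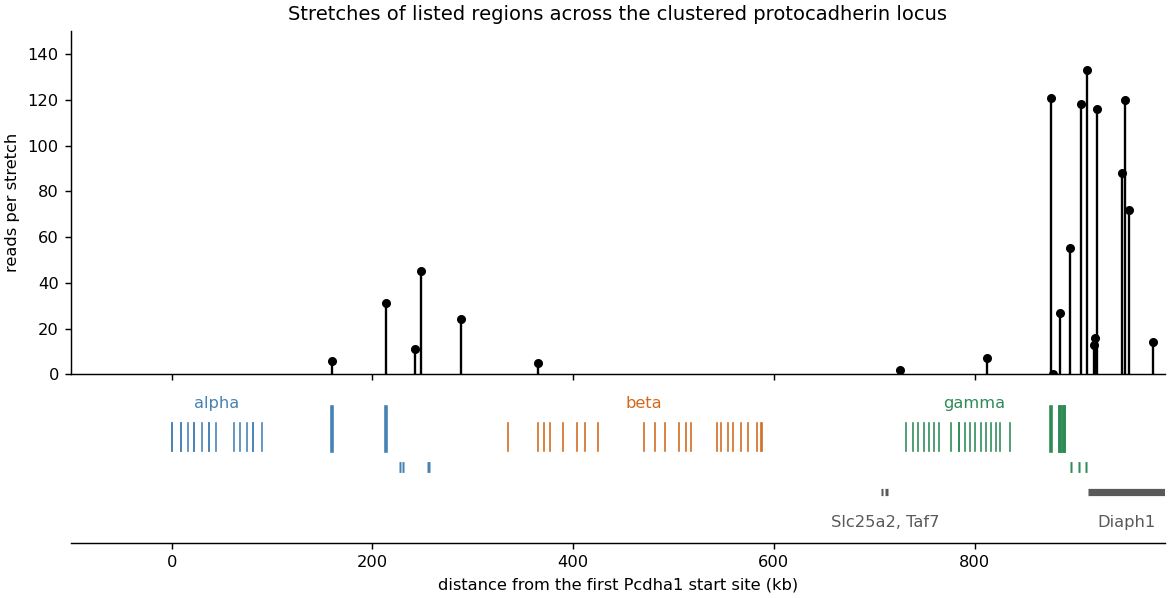
Reads in each stretch of listed regions (abutting regions joined, top) against distance in kb from the first Pcdha1 TSS, above the TSSs of the members (ticks, C-type thicker and taller), the constant exons (blocks) and 3 other genes (grey). The stretches with 55 or more reads all lie from Pcdhgc3 onward, and the beta array holds 1 stretch of 5 reads.

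Most reads of the locus lay at its far end. Abutting regions were joined, which gave 21 stretches in the window, 20 of them with reads, 1024 in all. From 1 kb before Pcdhgc3 to the end of the window, 114.2 kb or 10.5% of its length, 26 regions with reads held 893 reads (87.2%). The density along the locus was compared in reads of listed regions per kb, for which the whole genome had 0.843. Genome-wide windows of 1 kb either side of a TSS had 21.6 and all other sequence had 0.425. The stretch of the gamma C-type and constant exons had 9.38 reads per kb (8.41 to 10.4). The sequence beyond gamma had 7.09 (6.51 to 7.71), and the corresponding C-type and constant end of alpha had 0.943 (0.761 to 1.15). The gamma variable array had 0.048 (0.019 to 0.100), the beta cluster had 0.019 (0.0062 to 0.045) and the alpha variable array had 0 (0 to 0.023). The gamma end thus lay above the genome-wide density, while the interval of the alpha end contained it. The intervals of the beta cluster and of the alpha and gamma variable arrays lay below it.

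**Figure D3:**
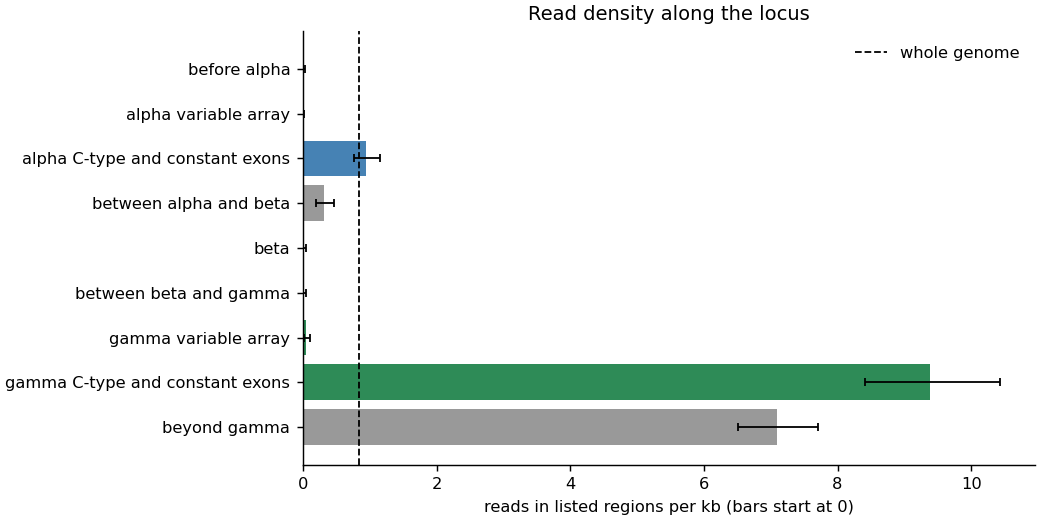
Reads in listed regions per kb for 9 consecutive segments of the window, with exact 95% Poisson intervals (counting error alone); the dashed line is the density of the whole genome, 0.843. The gamma C-type and constant segment (9.38) and the sequence beyond gamma (7.09) exceed it, and the variable arrays are near 0.

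Reads were also sorted by kind of sequence. Windows of 1 kb around the starts of variable members had 12 reads in 104.8 kb, or 0.114 per kb (0.059 to 0.20). Those around C-type starts had 181 reads in 10.4 kb, or 17.4 per kb (15.0 to 20.2), with regions placed by their midpoints. Regions covered 0.546% of the bases of the variable promoters and 34.1% of those of the C-type promoters. Variable exons beyond the promoter windows had 4 reads in 122.5 kb, all from the edge of the Pcdhac2 stretch. Constant exons had 21 reads in 4.98 kb (4.21 per kb, 2.61 to 6.44). All of these came from regions with midpoints in the last gamma constant exon, and no region overlapped an alpha constant exon. A region of 48 reads overlaps the first gamma constant exon but was counted with the remaining sequence by its midpoint. The remaining sequence inside the clusters had 229 reads in 457.4 kb (0.501 per kb). Sequence between the clusters had 26 reads in 212.6 kb (0.122 per kb).

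Away from promoters, the alpha cluster had an open stretch of 45 reads (32.8 to 60.2) from 37178249 to 37178878. It lies in the intron before the last constant exon, 6.38 kb from that exon, and covers the TSSs of the antisense transcripts Gm10544. A smaller stretch of 11 reads (5.49 to 19.7) in the same intron, from 37172327 to 37172667, covers the TSS of another antisense gene, Gm38097. Beyond the alpha constant exons, at a distance of 30.7 kb, a stretch of 24 reads (15.4 to 35.7) from 37218160 to 37218468 overlaps no annotated gene. All of its reads fell in the region from 37218291 to 37218468, and the abutting region before it had none. This stretch was the single one between alpha and beta. The stretch of 45 reads exceeded the 31 reads of the best alpha promoter, but their intervals overlapped. Between beta and gamma, 1 stretch of 2 reads lay in the noncoding gene 3222401L13Rik, from 37655564 to 37655913.

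The gamma cluster had stretches at its first constant exon, in the intron before the last one and at its 3′ end. Of these 3 places, the alpha cluster had a stretch in the intron alone. A stretch of 55 reads (41.4 to 71.6) from 37824965 to 37825967 covered the first gamma constant exon, 37825021 to 37825079. A stretch of 118 reads (97.7 to 141.3) from 37835318 to 37836802 lay in the intron before the last constant exon, 3.84 kb from that exon. Its interval did not overlap that of the stretch in the matching alpha intron. The gamma stretch is wider, however, with 1485 bases against 630. Per kb of stretch the values were close, 79.5 reads in gamma and 71.4 in alpha. The stretch with the most reads in the window, 133 (111.4 to 157.6) over 7 abutting regions, ran from 37841459 to 37843186. It is 1728 bases wide and had 77.0 reads per kb of stretch. It starts in the last gamma constant exon, which ends at 37841873, and its largest region, with 67 reads, lies past that end. Diaph1, which encodes a formin that nucleates actin filaments, runs towards the cluster on the other strand, and the annotated ends of the 2 lie 1.73 kb apart.

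Beyond the cluster, 7 further stretches lay inside Diaph1, none of them over an annotated Diaph1 exon. The largest were 120 reads (99.5 to 143.5) from 37879951 to 37880473, 116 (95.9 to 139.1) from 37852096 to 37852893, 88 (70.6 to 108.4) from 37877219 to 37877629 and 72 (56.3 to 90.7) from 37883529 to 37883867. The other 3 had 13 to 16 reads. Per kb of stretch, the 4 larger had 145.4 to 229.4 reads and the other 3 had 74.3 to 108.1. The stretch at the 3′ end of gamma had 77.0 per kb. The 4 larger stretches lay 10.6 to 41.8 kb past the end of gamma. Each stood above at least 92.3% of the 95824 stretches of the genome, whose median was 9 reads. The main Diaph1 promoter, 15.9 kb past the window, had 255 reads, whereas its annotated inner TSS at 37906416 had no region within 1 kb. The small stretch of 14 reads, from 37908181 to 37908318, lies farther upstream of this inner TSS. These intronic stretches cannot be assigned to Diaph1 or to the protocadherins from these data.

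**Figure D4:**
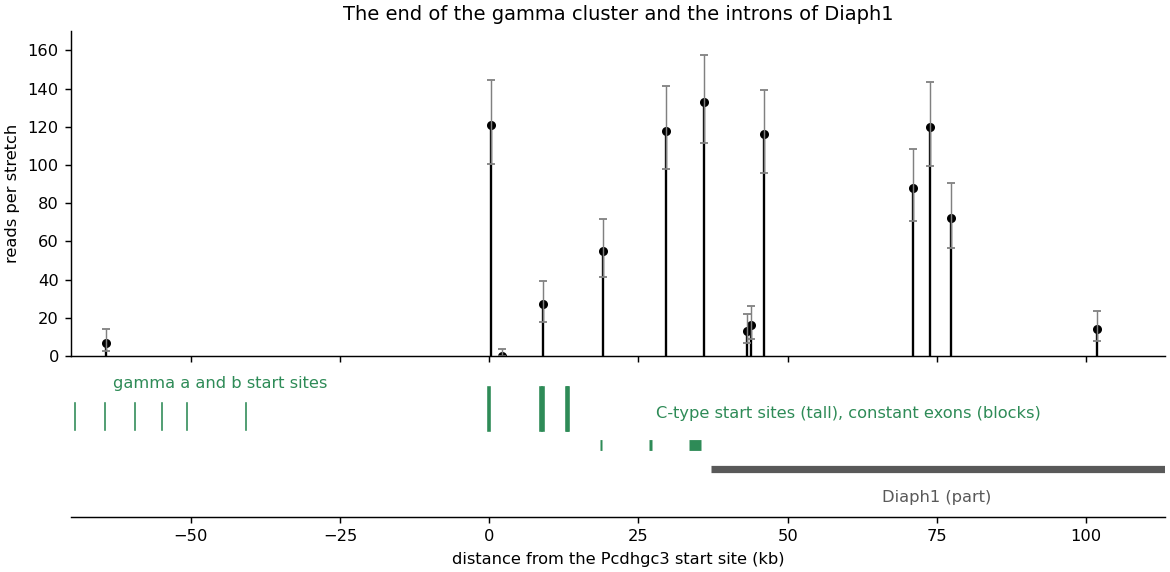
Reads in each stretch with exact 95% Poisson intervals (top) against distance in kb from the Pcdhgc3 TSS, above the gamma TSSs, the gamma constant exons and the part of Diaph1 in the window. Pcdhgc3 (121 reads), the intron before the last constant exon (118), the 3′ end of the cluster (133) and the 2 highest Diaph1 stretches (120 and 116) have overlapping intervals; those of the other Diaph1 stretches, with 88 reads or fewer, lie below the interval of the 3′ end.

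The open C-type promoters were among the members' richest in CpG. CpG was counted from 250 bases before to 50 after the TSS. For a gene with several TSSs, inside or outside the clusters, the highest count was taken. Pcdhgc3 had 26 CpG dinucleotides, Pcdhgc4 20, Pcdhac1 17 and Pcdhac2 12. Pcdhgc5, the C-type member without a region, had 6. The open variable members Pcdhb2 and Pcdhgb6 had 7 each. The median was 9 in the alpha, 5 in the beta and 7 in the gamma cluster, and Pcdhga12, the last variable gamma member, had 0. Among genes outside the clusters, an open promoter was found at 619 of 5621 with 0 to 4 CpG, 43.2% with 5 to 9, 85.2% with 10 to 19 and 8490 of 8941 with 20 or more. Among members with 0 to 4 CpG, 0 of 13 were open. In the range of 5 to 9 CpG, 2 of 32 members were open, with an exact 95% binomial interval of 0.766% to 20.8%. In the range of 10 to 19 CpG, 2 of 10 members were open, with an interval of 2.52% to 55.6%; these were Pcdhac1 and Pcdhac2, and none of the 8 variable members in the range was open. The intervals for 5 to 9 and for 10 to 19 CpG lay below the share of other genes in the same range. The 8 variable members had 10 to 12 CpG, and of 1211 other genes with that number 74.6% had an open promoter. With 20 or more CpG, both members were open.

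**Figure D5:**
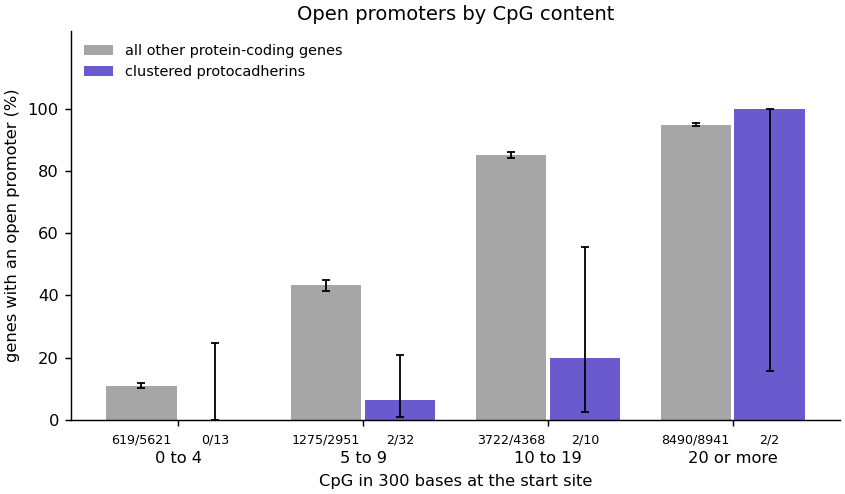
Percentage of genes with an open promoter by the number of CpG dinucleotides in the 300 bases around the TSS, for the 57 members (purple) and all other protein-coding genes (grey), with exact 95% binomial intervals that take genes as independent; open and total genes are printed under each bar. For a gene with several TSSs the highest CpG count was taken. In the ranges of 5 to 9 and 10 to 19 CpG the intervals of the members lie below those of other genes. In the range of 0 to 4 CpG the intervals overlap. With 20 or more CpG both members are open.

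CpG dinucleotides were also counted in the central 300 bases of the largest region of each stretch with reads. The 14 stretches away from the members' promoters had 2 to 16, with a median of 5, and the 6 at the promoters had 10 to 26, with a median of 17, so the ranges overlapped. The 4 larger stretches inside Diaph1 had 3 to 10, and the stretch in the last gamma intron had 2. The stretch of 24 reads between alpha and beta had 15, and that of 2 reads between beta and gamma had 16. Among the promoters, the Pcdhac2 stretch had 26, the Pcdhgc3 stretch had 17 and the Pcdhgc4 stretch had 12.

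Many variable promoters are known to carry a conserved element with the core CGCT, to which CTCF binds when it is unmethylated. These letters, on either strand, were found in the 300 bases at 56 of the 57 members, against 73.8% of all protein-coding genes, and were missing at Pcdhga12. All 6 open members had them. TATAAA was found at 10 members (17.5%, against 17.4% of all genes), none of them open. A 12-letter CTCF consensus was found at no member promoter, against 0.716% of all genes. Of the 18 window regions with at least 10 reads, 1 held it in its central 300 bases, in the Diaph1 intron from 37883529 to 37883867, a share of 5.56% against 5.05% of such regions in the genome.

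Copied sequence can lose reads in alignment, so the uniqueness of 75-base words, the read length in the labels, was measured. Only exact copies were counted, so a word that differs by 1 base from another place counted as unique. Loss of reads at near-identical copies was therefore not tested. In the windows of 1 kb around the TSSs, 86.6% to 100% of words occurred once in the genome, with a median member at 100%. The lowest value belonged to Pcdha7. The beta gene with the lowest value, Pcdhb9, had 94.0%, and the beta median was 100%, whereas the alpha median was 94.6%. Of the sequence of the whole window, 90.8% was unique in this way. Places without regions or with few differed in this share. It was 82.1% in the alpha variable array and 79.1% between beta and gamma. It was higher, 92.1%, in the beta cluster, 93.3% between alpha and beta and 97.6% in the gamma variable array. In the gamma C-type and constant stretch it was 99.7%.

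Among related genes elsewhere, the other protocadherins differed from the clusters in their share of open promoters. All 12 protocadherins that lie outside the clusters had an open promoter (100%, against 64.3% of all protein-coding genes), with a median of 55.5 reads, against a median of 27 over all protein-coding genes. Pcdh18 had 194 reads (167.7 to 223.3), Pcdh9 had 166 (141.7 to 193.3) and Pcdh19 had 91 (73.3 to 111.7), while Pcdh12, known from endothelium, had 1. With Pcdh15 at 8 reads and Pcdh11x at 4, Pcdh12 would not count as open at 10 reads or more, and nor would they. The interval of Pcdh18 lay above that of Pcdhgc3, and those of Pcdh9 and Pcdh19 overlapped it. The Ugt1a cluster, which encodes glucuronidating enzymes and also joins variable first exons to shared ones, had 2 open promoters of 9 (22.2%, against the same 64.3%). These were Ugt1a6a with 13 reads and Ugt1a7c with 9. Its median was 0 promoter reads, as it was in the alpha, beta and gamma clusters. Of 17 genes for CTCF, cohesin and chromatin factors known to act on the clusters or on chromatin loops, 16 had an open promoter (94.1%, against 64.3%). Stag1, a cohesin subunit, had 420 reads (380.8 to 462.2), the methylcytosine oxidase Tet2 had 232 and the silencing factor Smchd1 had 206. Ctcf had 190 (163.9 to 219.0), and Tet1 had no region.

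Of the other protein-coding entries with a TSS in the window, Gm42416, Gm37013 and Gm37388 start among the variable alpha exons and had no region either.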

How the data were processed

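ATAC-seq was described in 1 library of 1 group, sequenced on 4 lanes. Per the labels' protocols, BWA-MEM aligned the reads to mm10 and MACS2 called the peaks; STAR 2.6.1d and Partek are named in the submitters' processing notes. The authors deposited values in CPM for all regions. A second deposited table covers chromosomes 10, 11 and part of 12 and was not used here. Each deposited CPM value is the number of reads plus 1, times 0.0484. Reads were recovered as value / column minimum - 1 and were whole within 0.01 read for 99.9% of regions (84 exceptions, 0 in the window). The table's 1 other value column matches no sample analysed here and was not used.

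Regions were compared with GENCODE vM21 basic TSSs, and coordinates are written from 1 with both ends included. A promoter was given the reads of all regions overlapping 1 kb either side of any TSS; segments and kinds of sequence were given regions by midpoint. Constant exons are later exons carried by at least 3 members. CpG, motifs and words were read from GRCm38 (Python 3.11.15, SciPy 1.17.1). A gene with several TSSs was given its highest CpG count. The code was tested on simulated data. Named genes were members with promoter reads, C-type and end members, other genes in the window, the regions with the most reads, and the 3 most and 1 least accessible of each list. Part of the Schwann cell and glial list is not reported here, and its counts cover the genes that are. Members and lists were chosen with earlier results of these data known. The sources used here do not say whether duplicates were removed or whether mates were counted apart; either would make the intervals too narrow.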

Additional observations from a re-analysis of the deposited data

How the results depend on the processing

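Of 90 alternative values for 16 results, 74 stayed within counting error or within 1.5 times the count reported. Some of these could not move. The length of the flanks does not enter the reads per cluster, nor the promoter window the reads of the constant exons. No setting adds a region before alpha. The tally is therefore no measure of stability. With regions of at least 10 reads, 3 members had an open promoter, 1 of them in alpha and 0 in beta; reads fell to 0 in beta and 302 in gamma, and reads per kb to 0 at variable promoters, variable exons and constant exons, since small regions are left out. With 500 bp or 2 kb either side of a TSS, variable promoters had 0.227 or 0.057 reads per kb, C-type promoters 29.0 or 9.08, and variable exons 0.190 or 0. The window's length enters these densities. With 50 kb on each side, the sequence beyond gamma had 9.28 reads per kb. Allowing 1 mismatch, an alternative chosen after seeing the data, 4 of 18 window regions held the CTCF consensus, 22.2% against 14.6% of such regions in the genome. No setting changed which sort of promoter, variable or C-type, had more reads per kb. No paired analysis was possible because the lanes share 1 value column and 1 group; for the same reason no lane could be left out. At a few reads a region, depth limits what is said of Pcdhac1, Pcdhb2 and Pcdhgb6.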
